A study of Gallus gallus with 9 samples.

Results

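The genes that make selenocysteine and place it into proteins were followed in the livers of broilers, chickens bred for meat, with and without selenized yeast in the feed. The group was chosen by name: 9 gene symbols were sought among the probe sets of an Affymetrix chicken expression array that carry a single gene symbol. Of these, 8 genes were found, among 13009 named genes on the array, and they were read by 23 probe sets. PSTK, the kinase that phosphorylates the serine on the selenocysteine tRNA, had no probe set under that symbol and was not analysed here. The 8 genes measured were SEPSECS, SEPHS1, TRNAU1AP, SECISBP2, SECISBP2L, EEFSEC, SCLY and SELENBP1. The group thus also counts SCLY, which frees selenium from selenocysteine, and SELENBP1, which is not part of the insertion pathway.

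All birds were ROSS308 broilers, a commercial line, held to an age of 35 days with free access to feed. The control group (4 birds) ate a standard diet with no selenium supplement. The Se-yeast group (5 birds) ate that diet with selenized yeast (Sel-Plex) giving 0.5 mg of added selenium per kg. Both diets were fed for 35 days. Total RNA of each liver, 7 ug, was labelled and put on 1 array per bird. The labels number the birds of each group as biological replicates and give neither their sex nor how they were penned. The tests treat the birds as independent. If each diet had its own pen, effects of pen and diet cannot be told apart.

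Selenocysteine is built on its own tRNA. The tRNA is first charged with serine, the serine is phosphorylated, and SEPSECS then exchanges the phosphate for selenium taken from selenophosphate. The finished tRNA is carried to the ribosome by the elongation factor EEFSEC and read at a UGA codon, which otherwise ends translation, when SECISBP2 is bound to a hairpin (the SECIS element) in the mRNA of a selenoprotein. Liver is the main source of selenoprotein P, which carries selenium through the blood to other organs.

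Values are MAS5 signals, a linear brightness per probe set that was scaled to a common mean on each array. Fold changes are differences in mean log2(signal + 16), Se-yeast minus control. The probe sets of a gene are numbered from the brightest, and a signal is compared between birds, never between probe sets. A probe set was tested when its mean over the 9 birds reached the 40th percentile of all probe sets (6.33 on the log2 scale, a signal of 64.7), and this held for 18 of the 23 and for at least 1 probe set of each of the 8 genes. The other 5 belong to SECISBP2 (3), SCLY (1) and EEFSEC (1), with signals from 3.52 to 131 in single birds. Their log2 fold changes, read without a test, were -0.42, 0.65 and 0.32 for SECISBP2, 0.39 for SCLY and -0.06 for EEFSEC.

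Median array signals lay between 100.5 and 124.8. Defining hepatocyte markers (ALB, APOA1, TTR and others, 8 measured) had a summed signal of 295100 to 360600 in control and 358200 to 555100 in Se-yeast birds, and 7 of 8 had a positive fold change. Macrophage markers (8 measured, all positive) summed to 69020 to 86620 and 85590 to 101900 in the same order. Red cell markers (4 measured, all negative) summed to 20290 to 70560 in control and 17280 to 47900 in Se-yeast birds. Of the other marker lists, bile duct genes (2 tested, both positive) had a median log2 fold change of 0.43. T and B cell genes were 4 positive and 3 negative, stellate cell and fibroblast genes 4 and 1, and endothelial genes 3 and 1. The 2 muscle or pancreas genes measured lay below the filter. No gene of these lists passed the test, and none was at 0 in any bird. At an unadjusted limma p under 0.05 there were 3 of 8 hepatocyte, 2 of 8 macrophage and 0 of 4 red cell genes, and none in the other lists. Over all tested probe sets that share was 4.67%. The part of these shifts in the values below was not tested. Se-yeast replicate 1 stood apart on the sex chromosomes. Its signal for HINTW, a gene of the W chromosome, which hens carry and cocks lack, was 16430 on one probe set, against 6.14 to 19.5 in the other 8 birds. Its median deviation over 481 Z-chromosome genes was -0.30 on the log2 scale, against -0.01 to 0.12 in the other 8 birds.

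No probe set of the machinery passed the test between diets. Of 18 tested, 0 had an adjusted p under 0.05 in limma, where 0.026% of all 23063 tested probe sets did (4 higher and 2 lower). With ordinary statistics the machinery count was also 0, where 0.00434% of all tested probe sets passed. At an unadjusted p under 0.05 there was 1 of 18, SEPSECS, and over all tested probe sets the share was 4.67%. By the brightest probe set of each, 4 genes had a positive and 4 a negative log2 fold change, with a median of -0.05, beside 0.02 over all probe sets tested. Among the positive 4, SECISBP2L (0.0006) and EEFSEC (0.034) lay close to 0, and SELENBP1 is not part of the insertion pathway. Among the negative 4, SECISBP2 stood at -0.09. The 8 fold changes lay between -0.33 (SEPSECS) and 0.29 (SELENBP1), with standard errors of 0.131 to 0.246. Their 95% intervals reached no lower than -0.72 and no higher than 0.64, so none of them included a 2-fold change in either direction. In folds of the signal plus 16, those limits are 0.609 and 1.56.

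**Figure D1:**
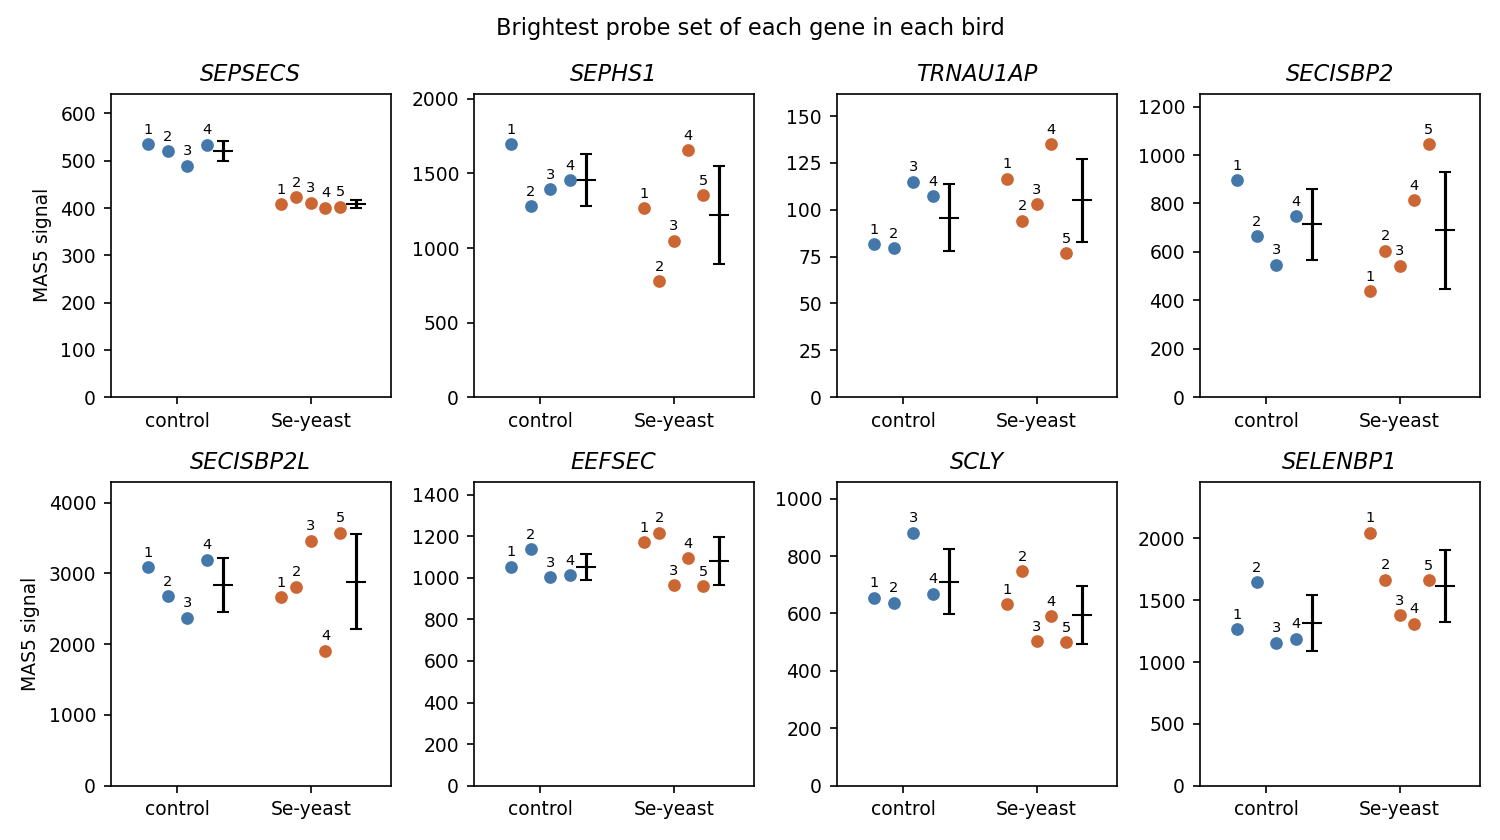
MAS5 signal (linear axis from 0) of the brightest probe set of each gene in each bird, numbered by replicate, with the mean and SD of each diet group in black (4 control birds in blue, 5 Se-yeast birds in orange). The SEPSECS signals of the diets do not overlap, at 489.5 to 535 and 400.3 to 423, whereas those of the other 7 genes do. Over all tested probe sets, the diets do not overlap in 1.64%, in either direction.

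SEPSECS, the synthase that completes selenocysteine on its tRNA, was read by a single probe set. Its signal was 535, 520, 489.5 and 534 in control replicates 1 to 4. In Se-yeast replicates 1 to 5 it was 408, 423, 411, 400.3 and 403. Every Se-yeast bird lay below every control bird, as in 0.75% of all tested probe sets, and the birds within a diet lay close to each other. In either direction, the diets lay fully apart in 1.64% of all tested probe sets. Control birds had a mean signal of 519.7 ± 21.2 (SD, n = 4) and those on Se-yeast one of 409 ± 8.75 (SD, n = 5), a fold change of -0.33 on the log2 scale (95% interval -0.62 to -0.05), and it did not pass in limma (adjusted p = 0.999). In whole liver RNA, a smaller number of expressing cells and less of the transcript per cell cannot be told apart.

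The size of the p for SEPSECS, but not the call, depended on which spread the test used. Its SD between birds of a diet was 0.0440 on the log2 scale, rank 2 from the smallest among 23063 probe sets, whose median was 0.337. Limma draws the spread of each probe set towards that of probe sets of like brightness and used 0.196 here. With its own spread alone SEPSECS ranked 2 among all probe sets by p, and rank 512 with the moderated spread. The adjusted p was 0.111 with ordinary statistics, an alternative added after seeing the data, and neither test called it. Leaving out any single bird kept the fold change between -0.36 and -0.32, and over all alternatives it lay between -0.39 and -0.30.

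**Figure D2:**
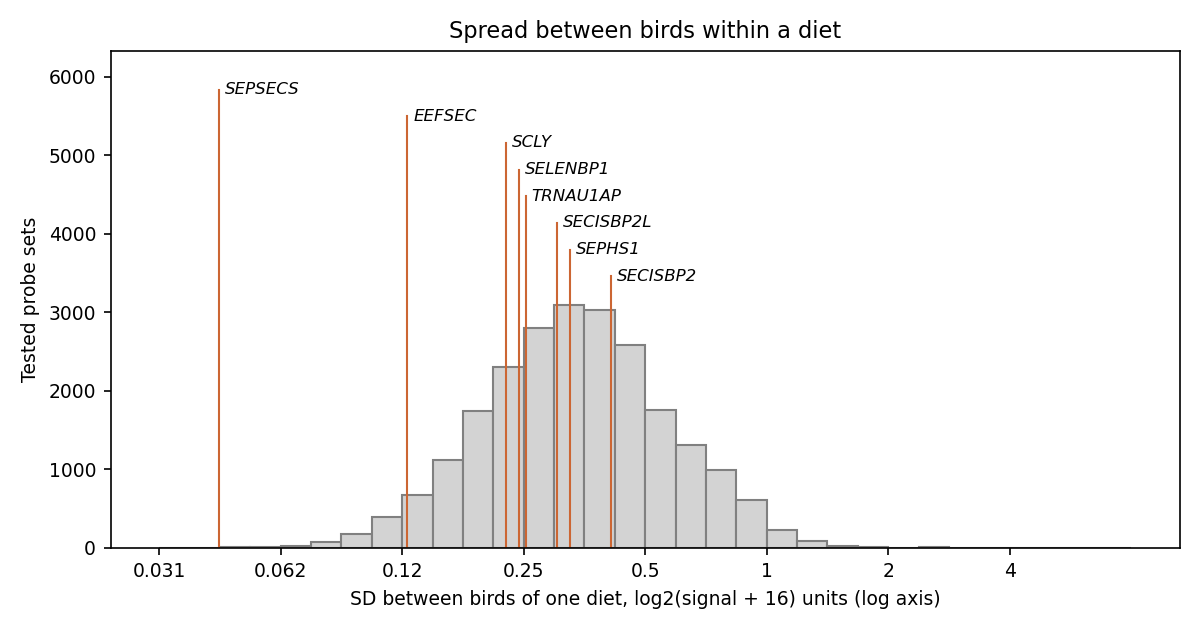
Number of tested probe sets by their SD between birds of one diet, in log2(signal + 16) units on a log axis, with the brightest probe set of each machinery gene marked by a line. SEPSECS sits at 0.0440, at the far low end, EEFSEC at 0.129, and the other 6 genes between 0.226 and 0.411, from percentile 22 (SCLY) to 65.5 (SECISBP2) of all tested probe sets.

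SEPHS1 is a relative of the selenophosphate synthetase SEPHS2, the enzyme that supplies the selenium donor. SEPHS2, sought among the selenoproteins, had no probe set under its symbol and was not measured. In mammals SEPHS1 itself is not needed to supply that donor. The brightest of its 4 probe sets, all tested, gave 1697, 1281, 1395 and 1456 in control replicates 1 to 4 and 1268, 779, 1050, 1657 and 1353 in Se-yeast replicates 1 to 5. The groups overlapped, Se-yeast replicate 2 was the lowest bird, and Se-yeast replicate 4 reached the upper control range. The log2 fold change was -0.29 (95% interval -0.72 to 0.14; limma adjusted p = 0.999), and without Se-yeast replicate 2 it was -0.14. The other probe sets of SEPHS1 stood at -0.13, -0.11 and 0.21. On probe set 4, control replicate 4 read 11.8 where the other control birds read 101 to 112, and without that bird the value was -0.33.

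TRNAU1AP, a protein that associates with the selenocysteine tRNA, was dim on both of its probe sets. Its brighter probe set read 81.5, 79.3, 115 and 107 in control replicates 1 to 4 and 117, 94.1, 103, 135 and 76.8 in Se-yeast replicates 1 to 5. The lowest and the highest bird both belonged to the Se-yeast group. The log2 fold changes of the probe sets were 0.11 (95% interval -0.42 to 0.64) and -0.19 (95% interval -0.73 to 0.35), so the data set no direction for this gene.

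SECISBP2, the protein that binds the SECIS hairpin and recruits the elongation factor, was read by 7 probe sets, of which 4 were tested. The brightest gave 896, 664, 548 and 747 in control replicates 1 to 4. In Se-yeast replicates 1 to 5 it gave 438, 605, 542, 813 and 1045. The Se-yeast birds spanned the whole control range and went beyond it at both ends, 2.39-fold from lowest to highest, against 1.64-fold in control. The log2 fold change was -0.09 (95% interval -0.61 to 0.42; limma adjusted p = 0.999), and the other tested probe sets stood at -0.02, -0.17 and 0.09.

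The RefSeq gene table places SECISBP2 on the Z chromosome, of which cocks carry a pair and hens a single copy. Se-yeast replicate 1, the bird with the W-chromosome signal, was the lowest of the 9 birds on both of the brighter SECISBP2 probe sets, by 0.61 and 0.53 below the mean of all birds on the log2 scale. On probe sets 3 and 4 its deviations were -0.24 and -0.17, and it was not the lowest bird. Without Se-yeast replicate 1 the fold changes of the brighter pair turned positive, at 0.05 and 0.11, and they were 0.21 and 0.19 with the first HINTW probe set as a covariate (396 in that bird, 24 to 114 in the others). With the second, which read 16430 in that bird and 6.14 to 19.5 in the others, they were 0.07 and 0.13. That covariate was added after seeing the data. It mainly sets that bird apart, so it is no check separate from leaving the bird out. None of these values passed. With 1 such bird, in 1 diet group, an effect of sex on this gene was not tested. Over 9781 autosomal genes, those outside the sex chromosomes, the median deviation of Se-yeast replicate 1 was 0.035. On probe sets 1, 2 and 3 of SECISBP2L, a gene of chromosome 10, its deviations were -0.08, -0.78 and -0.66.

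SECISBP2L, a paralogue of SECISBP2 that in mammals can also bind SECIS hairpins, had 3 tested probe sets. The brightest gave 3088, 2681, 2372 and 3190 in control replicates 1 to 4 and 2660, 2812, 3464, 1905 and 3576 in Se-yeast replicates 1 to 5. The log2 fold change was 0.00 (95% interval -0.40 to 0.40; limma adjusted p = 0.9998). The other probe sets stood at -0.07 and -0.21. Both read Se-yeast replicate 1 low, at 1114 and 1159, where its signal on the brightest probe set lay within the control range. Se-yeast replicate 4, the lowest bird on the brightest probe set, read 1644 and 2117 on the others, inside the control ranges. Probe sets for this gene therefore ranked the birds differently.

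EEFSEC, the elongation factor that delivers selenocysteine, had the second smallest spread of the 8 genes. Its brightest probe set gave 1054, 1137, 1003 and 1014 in control replicates 1 to 4 and 1171, 1218, 963, 1094 and 961 in Se-yeast replicates 1 to 5. The groups overlapped, with means of 1052 ± 60.7 (SD, n = 4) and 1081 ± 118 (SD, n = 5). The log2 fold change was 0.03 with a 95% interval of -0.25 to 0.32, the narrowest of the 8 together with that of SEPSECS. The second probe set, about which birds spread more, stood at 0.13 (95% interval -0.38 to 0.64).

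**Figure D3:**
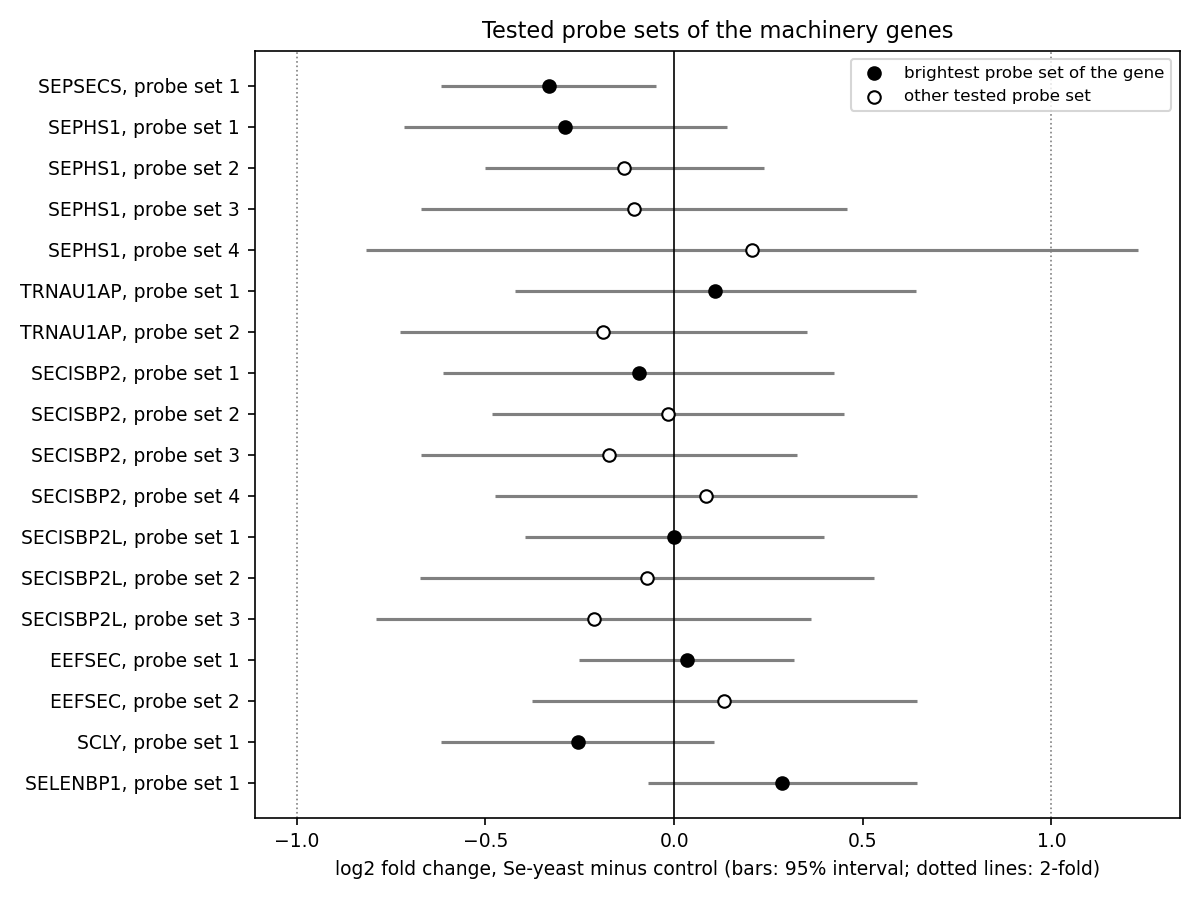
Log2 fold change (Se-yeast minus control) of the 18 tested probe sets with 95% intervals from limma; filled points are the brightest probe set of a gene and dotted lines mark a 2-fold change. Only the interval of SEPSECS leaves out 0, these intervals are not adjusted for the number of probe sets, and that of SEPHS1 probe set 4 alone reaches past 2-fold, to 1.23.

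SCLY, the lyase that frees selenium from the selenocysteine of broken-down proteins, gave 655, 638, 882 and 669 in control replicates 1 to 4 on its tested probe set and 632, 747, 504, 589.6 and 499.8 in Se-yeast replicates 1 to 5. The groups overlapped only through Se-yeast replicate 2, which lay above 3 of the 4 control birds. The log2 fold change was -0.26 (95% interval -0.62 to 0.11; limma adjusted p = 0.999). Control replicate 3 was well above the other control birds, and without it the value was -0.15. The other probe set of SCLY, below the filter, stood at 0.39.

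SELENBP1 binds selenium without containing selenocysteine, and in humans it acts as a methanethiol oxidase; it is not part of the insertion pathway. Its single probe set gave 1267, 1647, 1157 and 1189 in control replicates 1 to 4 and 2046, 1665, 1380, 1310 and 1661 in Se-yeast replicates 1 to 5. The means were 1315 ± 226 (SD, n = 4) and 1612 ± 291 (SD, n = 5), and the highest bird was Se-yeast replicate 1. The log2 fold change was 0.29 (95% interval -0.07 to 0.64; limma adjusted p = 0.999). It was 0.20 without Se-yeast replicate 1 and 0.40 without control replicate 2, the highest control bird.

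Birds did not hold a common position across the machinery. Se-yeast replicate 1 lay lowest for SECISBP2, highest for SELENBP1 and between the other birds for SECISBP2L, SEPHS1, EEFSEC and SCLY on their brightest probe sets. Se-yeast replicate 2 was lowest for SEPHS1 and highest for EEFSEC. Se-yeast replicate 5 was highest for SECISBP2 and SECISBP2L and lowest for EEFSEC, SCLY and TRNAU1AP. Of the 5 genes with more than 1 tested probe set, 4 had probe sets on both sides of 0, namely SEPHS1, TRNAU1AP, SECISBP2 and SECISBP2L, the last with 0.00 on its brightest; both of EEFSEC were positive, but probe set 1 was -0.01 without Se-yeast replicate 2, and probe set 2 ranged from 0.0019 (without Se-yeast replicate 1) to 0.25 (without Se-yeast replicate 3).

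**Figure D4:**
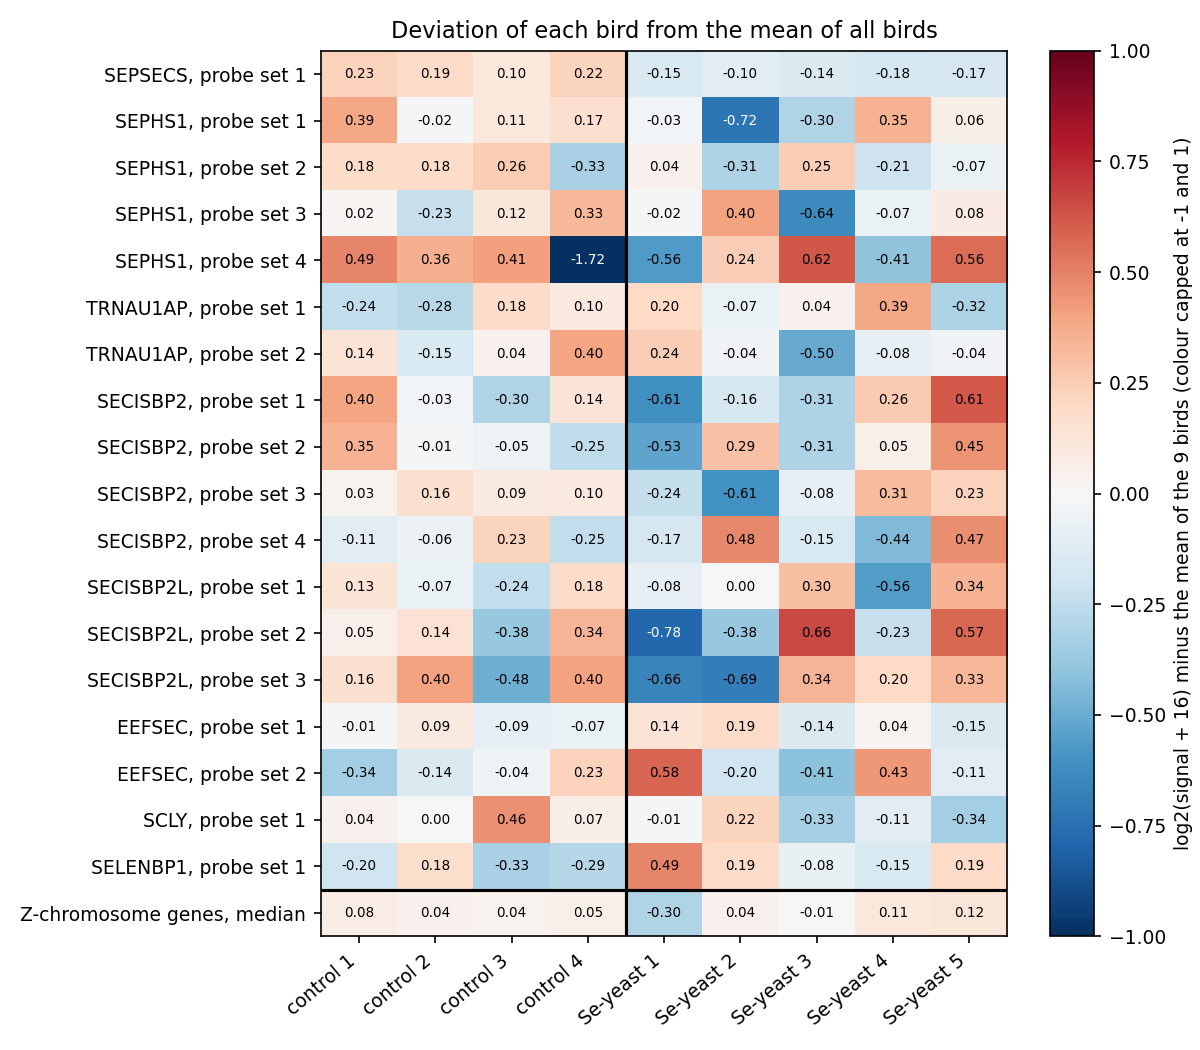
Log2(signal + 16) of each bird (columns, control left and Se-yeast right of the line) minus the mean of the 9 birds, for the 18 tested probe sets, with the median over 481 Z-chromosome genes in the bottom row. SEPSECS alone splits by diet in all 9 birds, as 1.64% of all tested probe sets do in either direction. Se-yeast replicate 1 is low for the Z chromosome (-0.30) and for the brighter SECISBP2 probe sets (-0.61 and -0.53). For SECISBP2L, a gene of chromosome 10, the same bird is low on probe sets 2 and 3 (-0.78 and -0.66) and at -0.08 on probe set 1.

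The selenoproteins, which this machinery makes, were set beside it. Of 23 tested selenoprotein genes, 3 passed and all were higher, namely GPX3, GPX1 and SELENOH, where 0.026% of all tested probe sets passed in either direction, with a median log2 fold change of 0.21 over the list. The 95% intervals of these 3 began at 1.30 for the secreted peroxidase GPX3, 0.92 for the cytosolic peroxidase GPX1 and 2.08 for SELENOH, a nuclear selenoprotein. On the brightest probe set of each machinery gene the highest upper limit was 0.64, below all of these. Over all 18 tested machinery probe sets it was 1.23, on the dim SEPHS1 probe set 4, which overlaps the interval of GPX1. SELENOH was dim in control birds, with a mean signal of 48.6 ± 34.3 (SD), below the filter signal of 64.7. In Se-yeast birds its mean was 376.4 ± 44.7 (SD), and this group brought it past the filter. With so low a control signal, the size of its fold change and of its limits depends on the constant added before the log. These 3 selenoproteins, GPX3, GPX1 and SELENOH, were picked because they passed, so high lower limits come with that choice. The interval of every other tested selenoprotein gene began below 0.64, the highest of them at 0.48 for PRXL2A. The difference between the gene groups was not itself tested, and the selenoproteins were known to have responded when the lists were written.

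Factors around the pathway were counted in the same way, each gene by its brightest tested probe set. Among 13 tRNA and RNA factors that serve selenocysteine insertion, 8 were positive and 5 negative, with a median of 0.03, and none passed in limma. The smallest unadjusted p belonged to the tRNA methyltransferase FTSJ1 at 0.70 (95% interval -0.31 to 1.72), the tRNA isopentenyltransferase TRIT1 at -0.32 and the RNA-binding protein ELAVL1 at -0.16. Among 11 tested genes of selenium uptake, release and excretion, 6 were positive and 5 negative, with a median of 0.01, and none passed. MAT1A, which activates methionine in liver, stood at 0.31 (95% interval 0.06 to 0.55), the methyltransferase TPMT at -0.34 and the transsulfuration enzyme CBS at -0.17. LRP8, a receptor for selenoprotein P, and its relative LRP2 lay below the signal filter.

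Nonsense-mediated decay removes mRNAs that end too early, and in mammals it can act on selenoprotein mRNAs when selenium is short. Of its 10 tested genes, 8 were positive and 2 negative, with a median of 0.09, and none passed. RBM8A, a core protein of the exon junction complex, stood at 0.68 (95% interval 0.04 to 1.31), its partner CASC3 at 0.29 and UPF3B at 0.10. General elongation factors were positive for 10 of 12 tested genes. Their median was 0.08, beside 0.02 over all probe sets tested, and none passed, where 0.026% of all tested probe sets did. EEF1A1, which carries the ordinary aminoacyl-tRNAs, stood at 0.30 and EEF2, which moves the ribosome, at 0.17. The kinase EEF2K stood at -0.47 and was dim, with mean signals of 94.6 in control and 64.6 in Se-yeast birds. Cytosolic tRNA synthetases were positive for 7 and negative for 11 of 18, with a median of -0.05, and none passed. AARS1 stood at -0.40 and YARS1 at 0.33. At an unadjusted p under 0.05 the counts were 1 gene each for nonsense-mediated decay, selenium handling and elongation factors and 0 for the RNA factors and the synthetases, beside 10 of 23 for the selenoproteins and 4.67% of all tested probe sets.

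**Figure D5:**
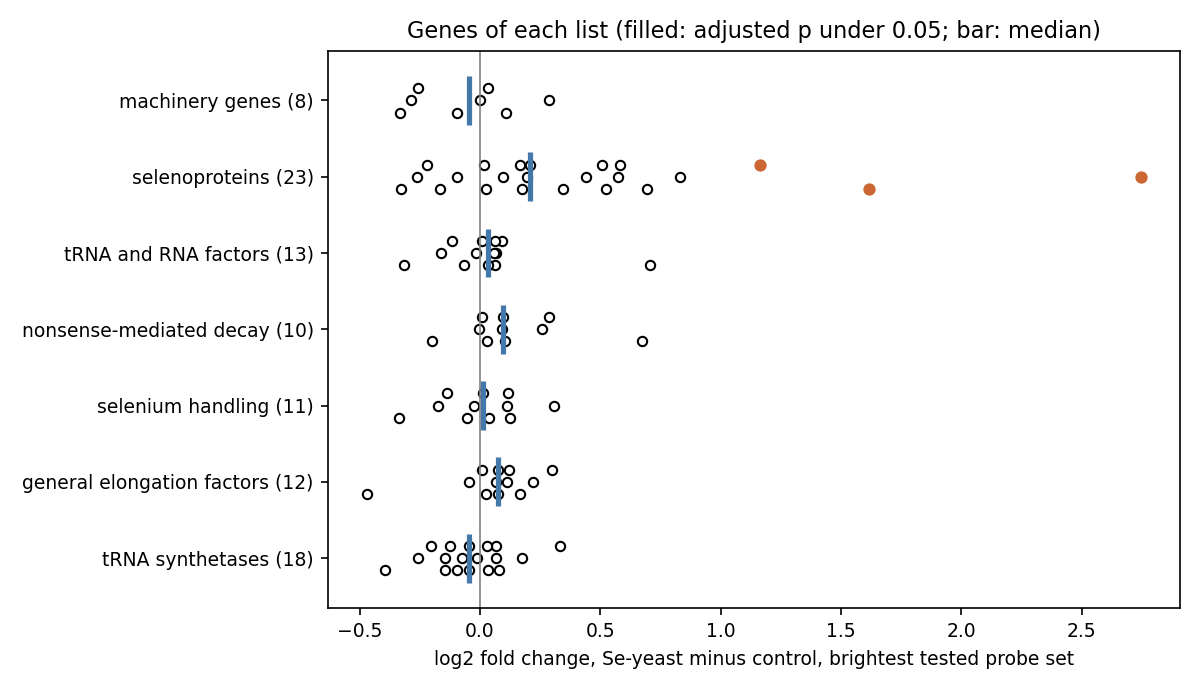
Log2 fold change (Se-yeast minus control) of each gene by its brightest tested probe set, for the 8 machinery genes and 6 lists, with the number of genes in brackets, the median as a blue bar and genes past the threshold filled. The filled points are GPX3, GPX1 and SELENOH; the medians of the other groups lie between -0.05 and 0.09.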

How the data were processed

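RNA from the livers of 9 birds was measured on 1-colour arrays. The authors deposited linear intensities, 1 per probe set, made with MAS5 (version: not given in the sources used here) per the submitters' processing notes. No detection calls were used. On every array the mean between the 2nd and 98th percentiles was 500.2, so changes are relative to the rest of the array. Arrays have no read depth, and their number limits the precision.

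Of 38535 probe sets, 96 array controls were left out. Genes were named from probe sets with 1 symbol (27168); 177 had several and 11094 none. Of the 18 tested machinery probe sets, the 8 ending in _s_at can also read related transcripts. They include the brightest probe set of SCLY, SECISBP2, SECISBP2L and TRNAU1AP. The 23063 probe sets at or above the 40th percentile went into linear models (limma 3.58.1, R 4.3.3; eBayes with an intensity trend) on log2(signal + 16), two-sided, with Benjamini-Hochberg adjustment over all of them and a threshold of 0.05. Intervals are 95%. Chromosomes come from the RefSeq table of the GRCg7b assembly. All machinery probe sets were reported; of other lists, up to 3 genes with the smallest p were named, and 3 genes most like SEPSECS and SELENBP1. The members and lists were chosen with earlier results of these data known. The fit was tested on simulated data. In all, 22 alternatives were run, 2 of them (ordinary statistics and the second HINTW probe set) chosen after seeing the data.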

Additional observations from a re-analysis of the deposited data

Results flagged for a closer look

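Within a diet group, a single bird stood away from the others for 3 of the 36 groups of values examined (18 tested probe sets in each of the diets), by Dixon's gap test; chance flags about 1 group in 20. On SEPHS1 probe set 2, control replicate 4 had a signal of 581, and the other control birds lay between 832 and 878. On SEPHS1 probe set 4 the same bird read 11.8, against 101 to 112. On SEPHS1 probe sets 1 and 3 that bird read 1456 and 137, the former within and the latter above the range of the other control birds. For SCLY, control replicate 3 had a signal of 882, against 638 to 669 in the other control birds.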

How the results depend on the processing

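No machinery probe set passed under any of the 21 alternatives for that count. The count over all probe sets, 6, was 3 without the intensity trend, 3 with the replicate block, 2 with the HINTW covariate, 3 with the second HINTW probe set as covariate, 1 with ordinary statistics and 3 to 7 when single birds were left out (3 without control replicate 3 or Se-yeast replicates 1, 3 or 4). The median of the machinery genes, -0.05, was -0.11 with median centring, -0.14 with the replicate block and 0.017 with the second HINTW probe set, and -0.14 to 0.028 when single birds were left out. Some fold changes changed sign (numbers after a gene are its probe sets). Not all of them were near 0 in the main fit, where SEPHS1 4 stood at 0.21 and SECISBP2L 3 at -0.21. With median centring SECISBP2L 1 was -0.058 and EEFSEC 1 was -0.025. With the replicate block SECISBP2 4 was -0.022 and SECISBP2L 1 was -0.085. With the HINTW covariate SECISBP2 1 and 2 were 0.21 and 0.19, and SECISBP2L 1, 2 and 3 were -0.019, 0.24 and 0.15. With the second HINTW probe set SECISBP2 1 and 2 were 0.074 and 0.13, SECISBP2L 2 was 0.15, and EEFSEC 1 and 2 were 0.00 and -0.017. The causes were not tested. When single birds were left out, SEPHS1 3 and 4 ranged from -0.22 to 0.040 and from -0.33 to 0.41, SECISBP2 1, 2 and 4 from -0.26 to 0.048, -0.13 to 0.11 and -0.025 to 0.21, SECISBP2L 1 and 2 from -0.085 to 0.14 and -0.24 to 0.12, and EEFSEC 1 from -0.010 to 0.074. Replicate numbers are shared between diets, but same-numbered birds did not deviate together (r = -0.11, 0.04, 0.02 and 0.00), so the block, which gives Se-yeast replicate 5 no weight, is no pairing. SEPSECS, SCLY 1 and SELENBP1 kept their sign under every alternative run. So did SEPHS1 1 and 2, SECISBP2 3 and TRNAU1AP 1 and 2 wherever they were tested, the TRNAU1AP pair with opposite signs. Not every alternative could change a sign. The filter, the eBayes options and ordinary statistics leave the fold change of a probe set as it is. The replicate block gave the same fold changes as leaving out Se-yeast replicate 5.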

Other observations

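By Pearson correlation of log2(signal + 16) over the 9 birds, the 3 named probe sets most like SEPSECS among 17933 candidates were those of TKTL1 (r = 0.977, Spearman's rho = 0.933), a transketolase-like protein, the kinase STK25 (r = 0.944, rho = 0.967) and ATG3, an enzyme of autophagy (r = 0.942, rho = 0.90). Their log2 fold changes were -0.43, -0.58 and -0.18, and none passed in limma (adjusted p = 0.999 each). For SELENBP1 they were the spindle protein TPX2 (r = 0.972, rho = 0.933), the Golgi protein COG7 (r = 0.937, rho = 0.933) and the kinase CDK5 (r = 0.929, rho = 0.917), at 0.34, 0.21 and 0.41. These genes were picked as the closest of many over the same 9 arrays, so the coefficients are a description and carry no test.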
